A study of Mus musculus with 6 samples.

Results

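The genes described here are the receptors, channels and peptide ligands through which neurons respond to transmitters and hormones other than glutamate, GABA and serotonin. They are the rows that the deposited table assigns to the neuroactive ligand-receptor interaction pathway of KEGG, a curated pathway database. Rows whose gene names begin with Gri, Grm, Gab or Htr were left out, as were Nr3c1, Nr3c2, P2ry12, Sst, Npy, Vip and Cck. This left 218 of the 278 pathway rows, in a table of 32201 genes. The assignment is the authors' and is not everywhere to a receptor: it includes Pard3, a cell polarity gene, and the protease genes Plg, Gzma and Ctsg.

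RNA sequencing was done on hippocampus from male C57BL/6N mice, an inbred strain, aged 8 weeks. All 6 libraries came from mice put through chronic unpredictable mild stress, a rotation of mild stressors used to model depression. Baicalin, a plant flavonoid, was given at 20 mg/kg to the mice behind 3 of them, and saline to those behind the other 3. Unstressed mice are not analysed here, so both groups share the stress and the comparison asks only what differs with the compound. The labels do not say that each library came from a separate mouse, so the tests below see only library-to-library spread, which may be technical.

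Most of these genes encode G protein-coupled receptors. A receptor that couples to Gs raises cyclic AMP, one that couples to Gi or Go lowers it and opens potassium channels, and one that couples to Gq activates phospholipase C. Others encode subunits of ligand-gated ion channels, such as the nicotinic, glycine and P2X receptors, or nuclear hormone receptors. In the hippocampus, muscarinic, adenosine A1 and cannabinoid CB1 receptors are known for adjusting transmitter release and pyramidal cell excitability, and somatostatin and neuropeptide Y receptors for restraining excitation.

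Summed over genes, each baicalin library held between 61303274 and 64983755 counts, and each saline library between 65989141 and 67957752. Of the 218 genes, 60 had a mean of at least 1 FPKM (fragments per kilobase of transcript, scaled to the mapped fragments of the library) over the 6 libraries and were tested. A further 74 had at least 0.1 but under 1 FPKM, 77 were lower still, and 7 had no count in any library (Calcr, Chrna9, Chrnd, Chrng, Ctsg, Mc2r and Taar2). Markers of the hippocampal fields were present, with 7 of 7 CA1 pyramidal, 8 of 8 dentate granule and 8 of 9 CA2 and CA3 pyramidal genes past the same filter. Markers of neighbouring tissue passed it in part, with 5 of 8 for thalamus and habenula, 5 of 7 for meninges, 3 of 7 for striatum, 2 of 7 for choroid plexus and 0 of 6 for hypothalamus. Of these lists the choroid plexus sum varied most between libraries, from 60.3 to 125 TMM-scaled CPM (counts scaled to a common library size, comparable between libraries within a gene) with baicalin and 43.6 to 86.2 with saline, and its part in the results below was not tested. In bulk tissue, fewer cells of a type and less RNA per cell cannot be told apart.

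No member passed the adjusted threshold. In edgeR (quasi-likelihood test, p adjusted over 13153 genes by the Benjamini-Hochberg method), 0 of 60 members were called at an adjusted p under 0.05, where 0.0456% of all genes tested (6) were. At an unadjusted p under 0.05 there were 5 members with lower levels with baicalin (8.33% of 60) and 0 with higher levels, where all genes gave 5.46% lower and 6.34% higher. The 5 were Sstr4, Cnr1, Thrb, Chrm1 and Chrna7. DESeq2 called 1 member, Sstr4, but it also called far more of all genes tested than edgeR did (218 against 6). With limma, 0 members were called on log2(FPKM + 1) and 0 with voom sample weights. The count of 5 rested partly on single libraries: it was 1 without saline library 2 and 3 without baicalin library 3. Scaling to TPM instead gave 8 lower and 0 higher, in a setting where all genes split into 1420 lower and 408 higher.

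The reference holds promoter windows for 4 of these 5 genes. They are shown as the regulatory sequence of the members with the smallest p, although no measurement here was made on chromatin. Cnr1 has 3 windows and Thrb 2, of which the one nearest the deposited gene start is given. Each run is 300 bases, 5′ to 3′ on the strand of the gene, from 250 bases before to 50 after a RefSeq transcript start (build GRCm38.p6), and RefSeq windows matched 167 of the 218 genes. Capitals mark matches on either strand to the GC box GGGCGG, the EGR motif GCGNGGGCG or the E-box CANNTG.
Sstr4, chr2:148395127-148395426, plus strand: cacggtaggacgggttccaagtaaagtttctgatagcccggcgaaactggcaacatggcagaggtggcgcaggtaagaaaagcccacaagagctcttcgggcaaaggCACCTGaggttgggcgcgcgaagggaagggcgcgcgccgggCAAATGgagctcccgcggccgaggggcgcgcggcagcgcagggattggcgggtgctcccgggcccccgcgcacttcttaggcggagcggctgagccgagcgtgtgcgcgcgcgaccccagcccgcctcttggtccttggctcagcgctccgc
Cnr1, chr4:33924394-33924693, plus strand: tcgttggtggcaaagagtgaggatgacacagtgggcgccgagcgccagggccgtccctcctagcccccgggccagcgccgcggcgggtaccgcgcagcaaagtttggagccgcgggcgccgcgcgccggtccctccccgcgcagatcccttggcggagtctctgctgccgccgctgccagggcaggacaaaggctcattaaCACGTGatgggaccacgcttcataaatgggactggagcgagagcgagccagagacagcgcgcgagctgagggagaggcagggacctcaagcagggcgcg
Thrb, chr14:17660710-17661009, plus strand: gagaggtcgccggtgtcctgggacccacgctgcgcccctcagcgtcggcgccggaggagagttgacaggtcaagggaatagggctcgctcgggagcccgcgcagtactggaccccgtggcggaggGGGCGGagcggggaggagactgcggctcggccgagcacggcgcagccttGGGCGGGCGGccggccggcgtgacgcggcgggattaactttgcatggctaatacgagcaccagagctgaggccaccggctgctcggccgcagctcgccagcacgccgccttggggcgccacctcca
Chrna7, chr7:63212477-63212776, minus strand: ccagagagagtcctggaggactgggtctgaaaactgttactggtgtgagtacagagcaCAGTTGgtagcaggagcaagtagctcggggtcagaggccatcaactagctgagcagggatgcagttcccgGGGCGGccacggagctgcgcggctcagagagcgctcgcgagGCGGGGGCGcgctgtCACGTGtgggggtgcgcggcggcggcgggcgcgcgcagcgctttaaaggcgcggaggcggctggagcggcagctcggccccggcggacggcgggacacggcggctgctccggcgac
The Sstr4 window held 2 E-box matches and no GC box or EGR match. In the Cnr1 window there was 1 E-box match and neither of the others, whereas the Cnr1 window at chr4:33924014-33924313 (not printed) held 5 GC box matches and 1 E-box. The Thrb window held 3 GC boxes and neither of the others, and its other window held 1 E-box alone. The Chrna7 window held 1 GC box, 1 EGR motif and 2 E-box matches. Over all 32851 windows in the reference, 72.3% held an E-box match, 35.7% a GC box and 5.55% an EGR motif, so the E-box is common in windows of this length. A match is a string of letters, not a measured binding site.

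Levels between genes are compared here per length, in FPKM. Thra, which encodes thyroid hormone receptor alpha, a nuclear receptor, stood far above the rest at 176 ± 6.69 FPKM (SD, n = 6 libraries of both groups). Next came a set between 20 and 40 FPKM. It held S1pr1, a sphingosine 1-phosphate receptor of astrocytes and endothelium (37.0 ± 1.47), Adora1, the adenosine A1 receptor (34.3 ± 1.53), and Chrm1, the main muscarinic receptor of pyramidal cells (32.5 ± 2.25). Glrb, the beta subunit of glycine receptors (31.0 ± 0.957), Cnr1, the CB1 cannabinoid receptor (26.4 ± 1.93), and Adcyap1r1, the PACAP receptor (26.0 ± 1.34), followed. Ntsr2, a neurotensin receptor, had 23.2 ± 0.972 and Adra1d, an alpha-1 adrenergic receptor, 18.8 ± 1.67 FPKM. Neighbours in this order, such as S1pr1 and Adora1 or Cnr1 and Adcyap1r1, had overlapping library ranges. Mas1, the receptor for angiotensin-(1-7), had 14.8 ± 0.551, Chrm3 11.03 ± 1.19, Sstr3 11.02 ± 1.09, Oprl1 (the nociceptin receptor) 10.9 ± 0.441, Npy1r 10.7 ± 1.12 and Npy2r 10.3 ± 0.496 FPKM. In all, 15 members reached 10 FPKM, and 38 of the 60 tested lay between 1 and 5 FPKM.

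**Figure D1:**
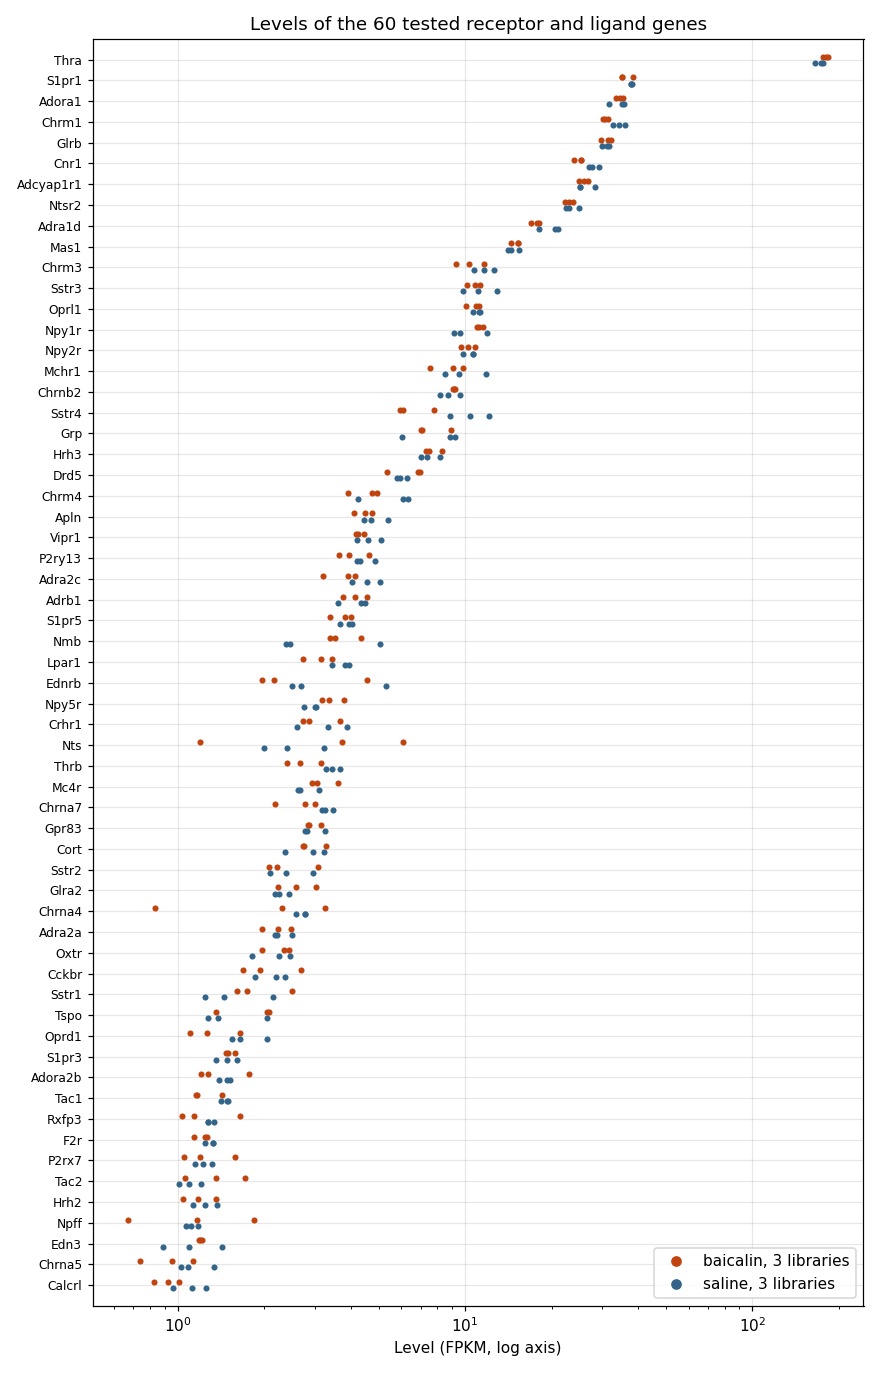
Level in FPKM (log axis) of the 60 tested genes in each library, with 3 baicalin and 3 saline libraries as points and genes in order of mean level. Thra stands apart at 165 to 184 FPKM, and for most genes the points of the groups intermix.

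Sstr4, a Gi-coupled somatostatin receptor, showed the largest separation relative to its error. Its TMM-scaled CPM were 9.998, 12.7 and 9.91 in baicalin libraries 1 to 3 and 17.1, 20.0 and 14.4 in the saline libraries. All 3 baicalin values lay below all 3 saline values, with means of 10.9 ± 1.58 and 17.2 ± 2.77 CPM (SD, n = 3 each). The log2 change, baicalin minus saline, was -0.66 ± 0.16 (SE), with adjusted p = 0.322 in edgeR, so it did not pass. In DESeq2 its adjusted p was 0.0103. Over all 20 alternatives its log2 change stayed between -0.79 and -0.54, the unadjusted p was under 0.05 in each, and the adjusted p ran from 0.0103 to 0.638. The gene (ENSMUSG00000037014) lies on chromosome 2, 148395344 to 148396767, in the deposited coordinates (mm10).

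The other somatostatin receptors that were tested gave no such separation, and Sstr5 lay below the filter. Sstr3, at 53.7 ± 2.71 against 56.2 ± 7.70 CPM, had a log2 change of -0.07 ± 0.11, and turned to 0.04 without saline library 1. Sstr2 was at -0.0009 ± 0.20 and Sstr1 at 0.27 ± 0.26, both named here only as paralogs. A test of the difference between Sstr4 and its paralogs was not made.

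Cnr1 and Chrm1, both abundant, had small and narrow differences. Cnr1 had 188, 176 and 190.1 CPM with baicalin and 204, 217 and 199.7 with saline. The groups did not overlap, and the log2 change was -0.16 ± 0.05 (adjusted p = 0.360 in edgeR). Chrm1 had 236, 224 and 233 CPM with baicalin and 255, 269.9 and 243 with saline, again without overlap. Its log2 change was -0.15 ± 0.05 (adjusted p = 0.381 in edgeR). Both kept a negative change in all 20 alternatives, and the unadjusted p was under 0.05 in 18 of them for Cnr1 and 15 for Chrm1.

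The summed level of the 7 CA1 pyramidal markers was 756, 632 and 711 CPM in baicalin libraries 1 to 3 and 811, 810.1 and 779.9 in the saline libraries, without overlap. Within the baicalin group, library 2 had the lowest CA1 sum, the lowest Cnr1 and Chrm1 and the highest Sstr4. Within the saline group, library 3 had the lowest CA1 sum and the lowest Sstr4, Cnr1 and Chrm1. The marker Mpped1 had 89.3 CPM in saline library 2, against 209 and 203 in saline libraries 1 and 3. Every other CA1 marker was highest in saline library 2, as were Sstr4, Cnr1 and Chrm1. Taken as log2 deviation from each gene's mean over the 6 libraries, the median of the 7 markers was 0.007, -0.28 and -0.12 with baicalin. With saline it was 0.12, 0.32 and 0.02. Of the 7, 6 had negative log2 changes (median -0.27), 1 a positive one, and none was at 0. In edgeR 0 of the 7 were called. The groups did not overlap for 3 (9.52% of all genes did not, with baicalin below), and 3 had lower levels at an unadjusted p under 0.05 (5.46% of all genes). The part of this in the values of Sstr4, Cnr1 and Chrm1 was not tested. The sum of 8 dentate granule markers was 439 to 452 CPM with baicalin, and with saline 304 in library 2 against 435 and 471 in the others. Of these 8 markers, 6 had positive changes and 2 negative ones. The groups did not overlap for 2, with baicalin above (9.93% of all genes). Without saline library 2, the log2 change was -0.54 for Sstr4, -0.13 for Cnr1 and -0.11 for Chrm1. The sum of the 8 interneuron markers was 669 to 712 CPM with baicalin and 641 to 685 with saline. Of the 7 tested, 4 changes were positive and 3 negative. At an unadjusted p under 0.05, 2 were higher (6.34% of all genes), and 0 were called in edgeR. The part of these lists in the receptor values was not tested.

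**Figure D2:**
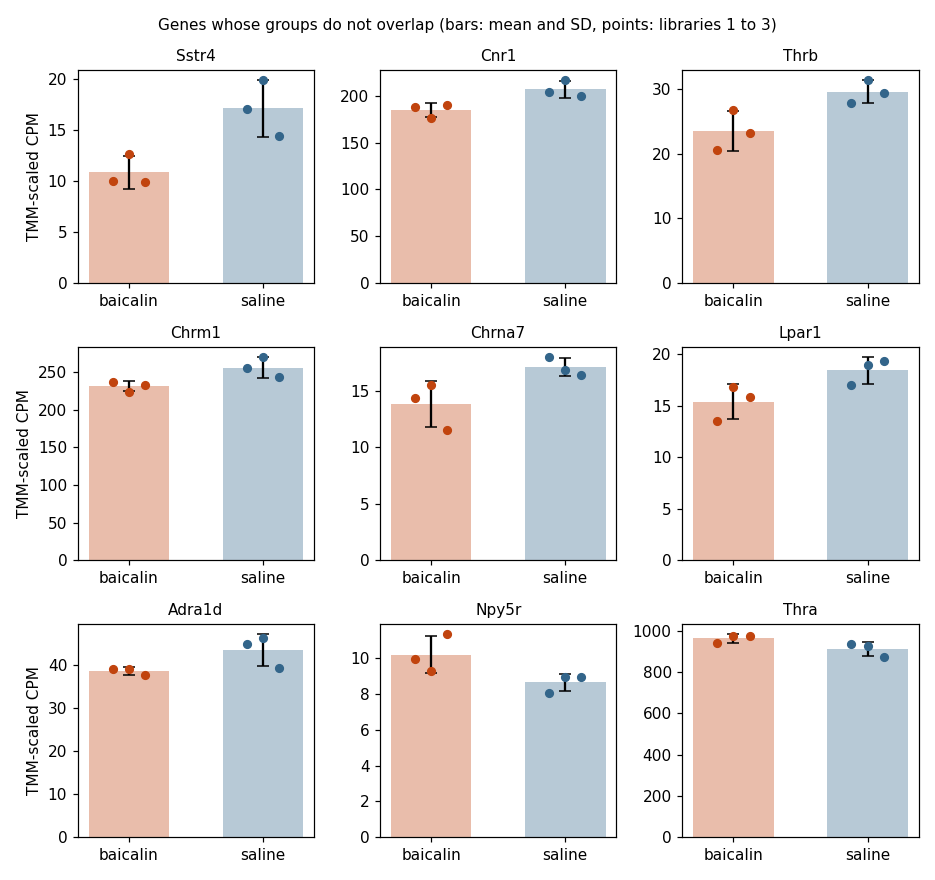
TMM-scaled CPM of the 9 tested genes whose groups did not overlap; bars give the mean and SD of 3 libraries and points the libraries. For Sstr4 the baicalin values lie at 9.91 to 12.7 and the saline values at 14.4 to 20.0, while for Thra the nearest values of the groups, 939 and 934, almost touch.

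Of 21 acetylcholine receptor genes, 7 were tested, 6 had negative log2 changes (median -0.28, against -0.0006 over all genes) and 0 were called in edgeR. At an unadjusted p under 0.05, 2 were lower, where 5.46% of all genes were. With the filter at 0.1 FPKM, 6 more receptor genes were fitted, and 3 of their changes were positive (named after their values were seen, Chrna2 0.72 ± 0.59, Chrm5 0.22 ± 0.24, Chrna1 0.13 ± 0.38) and 3 negative. The median stayed negative under each alternative that kept all 7 genes, from -0.32 to -0.13. Chrna7, which encodes the alpha-7 nicotinic subunit, had 14.4, 15.5 and 11.5 CPM with baicalin and 18.0, 16.9 and 16.4 with saline. Every baicalin value was below every saline value, and the log2 change was -0.31 ± 0.12 (adjusted p = 0.415 in edgeR). Chrm3, a Gq-coupled muscarinic receptor, averaged 75.2 ± 8.87 against 83.9 ± 7.15 CPM, with overlapping groups (-0.16 ± 0.10). Chrnb2, the usual partner of the alpha-4 subunit, was at 88.6 ± 1.65 against 85.4 ± 7.26 CPM (0.05 ± 0.07), and its gene overlaps Adar on the opposite strand (15.8 FPKM).

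Chrna4, which encodes that alpha-4 subunit, was set by 1 library. It had 4.84, 18.7 and 13.5 CPM with baicalin and 16.0, 15.02 and 15.9 with saline. Baicalin library 1 alone was low, and the log2 change of -0.34 ± 0.43 became 0.04 without it. Ednrb, the endothelin B receptor gene, was singled out after its values were seen. It had 22.4, 10.6 and 9.79 CPM with baicalin and 25.9, 12.3 and 13.1 with saline, so that library 1 of each group stood above the others. Its log2 change was -0.26 ± 0.42, and 0.17 without saline library 1.

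Thyroid hormone receptors went in opposite directions, both short of the threshold. Thrb, which encodes receptor beta, had 20.5, 26.8 and 23.1 CPM with baicalin and 27.9, 31.4 and 29.3 with saline. The groups did not overlap, and the log2 change was -0.33 ± 0.11 (adjusted p = 0.371 in edgeR). Thra had 939, 972 and 977 CPM with baicalin and 934, 924 and 873 with saline. Here the baicalin values lay above, by a narrow margin, and the log2 change was 0.08 ± 0.04 (adjusted p = 0.489 in edgeR). Over 20 alternatives the change of Thra ran from 0.003 to 0.10, with an unadjusted p under 0.05 in 0 of them. That of Thrb ran from -0.44 to -0.25 over 19, with an unadjusted p under 0.05 in 16. The difference between the 2 receptors was not tested.

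Among receptors for catecholamines, 5 of 14 were tested, with 3 negative and 2 positive changes and 0 called in edgeR, with 0 at an unadjusted p under 0.05. Adra1d had 39.1, 39.2 and 37.6 CPM with baicalin and 44.8, 46.3 and 39.4 with saline, without overlap but with saline library 3 close to the baicalin values (-0.17 ± 0.07, adjusted p = 0.437 in edgeR). Drd5, a Gs-coupled dopamine receptor and the most abundant dopamine receptor here at 6.19 ± 0.64 FPKM, had 0.10 ± 0.12. Adrb1, the beta-1 adrenergic receptor, was at 11.96 ± 1.22 against 11.9 ± 1.34 CPM (0.008 ± 0.12), and Adra2a at -0.03 ± 0.12. Drd1 and Drd2 lay below the filter at 0.754 and 0.639 FPKM, and Adra1a at 0.354, with overlapping TMM-scaled CPM for all 3.

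Lipid and purine receptors held some of the most abundant members and few differences. Lpar1, a lysophosphatidic acid receptor of oligodendrocytes, had 13.5, 16.9 and 15.9 CPM with baicalin and 17.0, 19.0 and 19.4 with saline. The groups just failed to overlap, and the log2 change was -0.26 ± 0.11 (adjusted p = 0.423 in edgeR). S1pr1 was at 128 ± 6.45 against 133 ± 0.601 CPM (-0.06 ± 0.05). Adora1, at 230.4 ± 3.60 against 227 ± 15.1 CPM, had 0.02 ± 0.06, and P2rx7, an ATP-gated channel of microglia, had 0.06 ± 0.16. For Adora1 and P2rx7 the sign turned under TPM scaling. Adora2a, the receptor typical of striatum, lay below the filter at 0.344 FPKM.

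Neuropeptide Y receptors Npy1r and Npy5r are neighbours on chromosome 8 (66697192 to 66706792 on the plus strand, and 66679965 to 66688094 on the minus strand), and both had positive changes. Npy5r had 9.93, 9.28 and 11.3 CPM with baicalin and 8.06, 8.91 and 8.90 with saline. Its baicalin values were all above the saline values, and the log2 change was 0.24 ± 0.11 (adjusted p = 0.441 in edgeR). Npy1r had 44.4, 45.5 and 44.3 CPM with baicalin and 38.0, 36.4 and 47.4 with saline, so that saline library 3 crossed the baicalin range (0.14 ± 0.10). Npy2r, a mainly presynaptic receptor, was at -0.01 ± 0.07.

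Opioid receptors differed more in level than between groups. Oprl1, at 46.5 ± 2.34 against 47.7 ± 1.46 CPM, had -0.04 ± 0.06. Oprd1, the delta receptor, had 5.89, 7.57 and 5.18 CPM with baicalin and 7.11, 9.46 and 7.63 with saline, with overlap (-0.38 ± 0.18, adjusted p = 0.458 in edgeR). Oprk1, the kappa receptor, had 140, 53 and 80 counts with baicalin and 132, 28 and 145 with saline. Its log2 change was -0.08 ± 0.62 with the filter at 0.1 FPKM. Oprm1, the mu receptor, was close to nothing in the deposited table, with counts of 0, 0 and 4 with baicalin and 7, 14 and 7 with saline, and its gene overlaps Ipcef1 on the opposite strand (2.56 FPKM). The Oprm1 counts are too few to compare groups.

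Of the other peptide hormone receptors described, 0 were called in edgeR, with 0 at an unadjusted p under 0.05. Crhr1, the CRH receptor, had 8.78 ± 1.37 against 9.24 ± 1.81 CPM (-0.07 ± 0.18), with a positive change without baicalin library 1 or saline library 1. Adcyap1r1 had 197 ± 4.51 against 199 ± 14.2 CPM (-0.01 ± 0.06). Oxtr, the oxytocin receptor, was at 0.06 ± 0.14, Ntsr2 at -0.02 ± 0.06 and Mas1 at 0.04 ± 0.06. Crhr2 and Tacr1 lay below the filter at 0.223 and 0.177 FPKM. Avpr1a, a vasopressin receptor, had 34, 23 and 4 counts with baicalin and 4, 4 and 8 with saline (1.97 ± 0.83 with no filter, adjusted p = 0.638 in edgeR). Avpr1b, its paralog, also named after its values were seen, was at -0.71 ± 0.37 with the filter at 0.1 FPKM, and Galr1 had 4 counts in baicalin library 2 alone.

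The remaining families were small. Both tested glycine receptor subunits had positive changes, Glra2 at 0.19 ± 0.14 and Glrb at 0.02 ± 0.05, though Glrb turned negative under TPM scaling. Hrh3, a histamine receptor, was at 28.1 ± 1.75 against 27.3 ± 2.32 CPM (0.04 ± 0.09), and Tspo, the mitochondrial translocator protein gene, at 0.23 ± 0.26. All 12 prostanoid and leukotriene receptor genes lay below the filter. Highest of them was Ptger1 at 0.559 FPKM, with 36, 325 and 190 counts with baicalin and 360, 41 and 426 with saline. Of 28 ligand genes 9 were tested, with 6 positive and 3 negative changes. Grp, which encodes gastrin-releasing peptide, was the most abundant at 7.85 ± 1.30 FPKM (-0.06 ± 0.18).

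**Figure D3:**
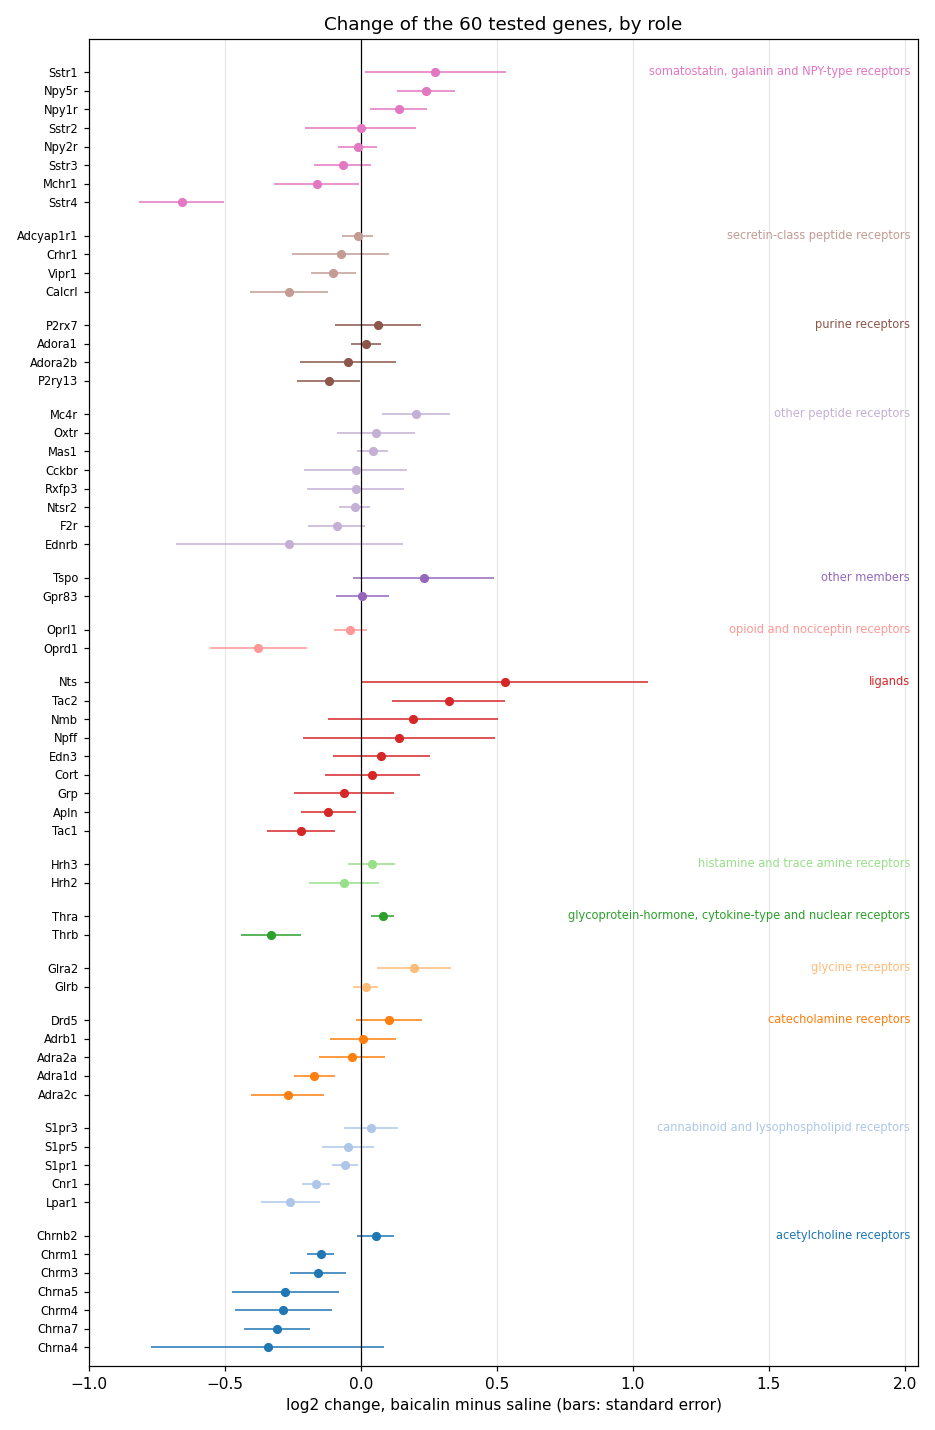
Log2 change, baicalin minus saline, with its standard error for each of the 60 tested genes, in colour by role. Of the 60, 36 lie left of 0 and 24 right of it, and Sstr4 at -0.66 lies farthest left.

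Across the 60 tested members, 36 log2 changes were negative (all genes gave 50.2%) and 24 positive, with a median of -0.03 against -0.0006 over all genes. Without baicalin library 1 the split was 29 negative and 31 positive and the median 0.003, and under TPM scaling 48 were negative and the median was -0.10. In 42 of the 60 the change was under 0.2 in size. The groups did not overlap for 7 members with lower values with baicalin (11.7%, against 9.52% of all genes) and 2 with higher values (3.33%, against 9.93%). The shares for lower values were thus near those of all genes, while the share for higher values was smaller. Whether either differs from all genes was not tested.

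Grouped by the G protein they mainly couple to, a grouping made after the values were seen, 14 of 19 Gi/o-coupled receptors had negative changes (median -0.04), as did 6 of 7 Gq/11-coupled (median -0.15) and 6 of 9 Gs-coupled ones (median -0.05). Ligand-gated channel subunits gave 3 of 7 (median 0.02). Some tested receptors were placed in none of these groups. Of all genes tested, 50.2% had negative changes. The Gi/o and Gq/11 medians were negative in all 19 alternatives that tested every gene, which refit the same libraries. Those of the Gs-coupled and channel groups took both signs. The ranges were close, however, at -0.11 to -0.02 for Gi/o and -0.12 to 0.02 for Gs. Whether these groups differ was not tested.

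Downstream of the receptors, G protein alpha subunits, adenylyl cyclases, phospholipase C beta enzymes, receptor kinases, arrestins, RGS proteins, cyclic AMP phosphodiesterases and protein kinase A subunits were taken as a list. Of 59 such genes 54 were tested, and 0 were called in edgeR. At an unadjusted p under 0.05 there were 5 lower and 0 higher, where all genes gave 5.46% and 6.34%. There were 40 negative changes (50.2% of all genes were negative) and 14 positive (median -0.05, and from -0.12 to -0.03 over the alternatives that tested every gene). The smallest p-values were those of Rgs8 (log2 change -0.12 ± 0.04) and Rgs14 (-0.18 ± 0.07), which encode regulators that speed GTP hydrolysis by G proteins, Prkar2a (-0.14 ± 0.05), a regulatory subunit of protein kinase A, and Gnao1 (-0.20 ± 0.08), the alpha subunit of Go. Rgs14 is also among the CA2 markers used here.

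Genes below the filter were fitted when it was set at 0.1 FPKM, with 134 members tested. Again 0 were called in edgeR, where 0.0293% of the 20463 genes past this filter were. At an unadjusted p under 0.05 there were 7 lower and 1 higher, against 4.54% lower and 4.84% higher over those genes. Named after its values were seen, the higher one was Npffr1, a receptor for RFamide peptides, with 224, 258 and 214 counts with baicalin and 194, 136 and 169 with saline (0.55 ± 0.18, adjusted p = 0.474 in edgeR). C3ar1, the complement C3a receptor of microglia, also named after its values were seen, had 61, 83 and 94 counts with baicalin and 105, 137 and 161 with saline (-0.68 ± 0.26, adjusted p = 0.508 in edgeR). The sum of the 7 microglial markers was 307 to 334 CPM with baicalin and 287 to 313 with saline, and its part in C3ar1 was not tested.

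**Figure D4:**
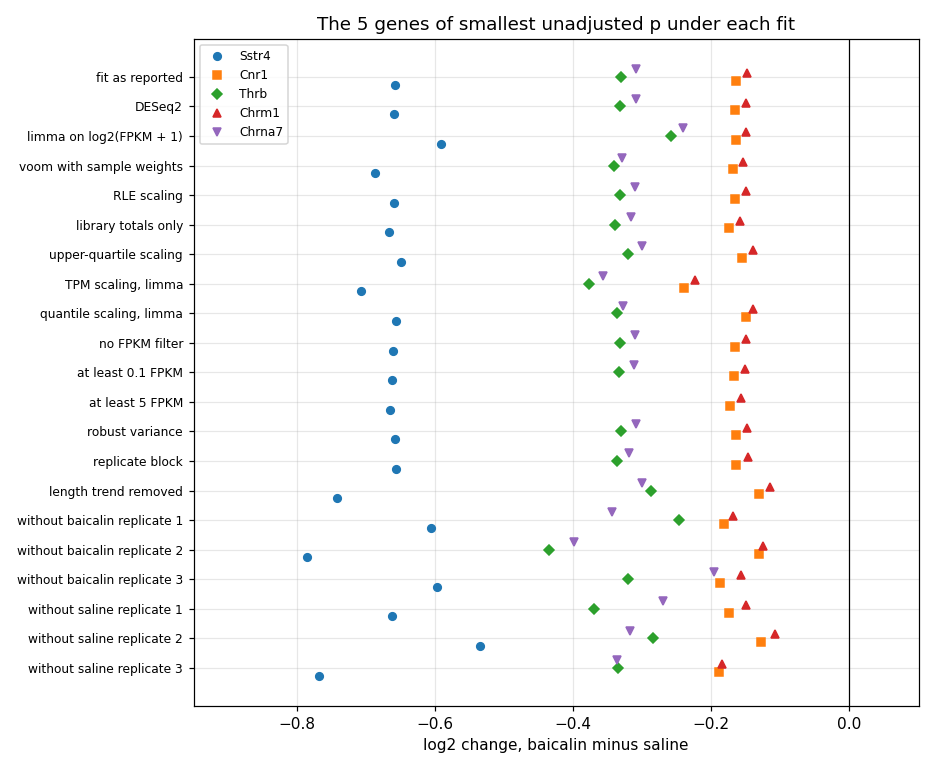
Log2 change, baicalin minus saline, of the 5 tested genes with the smallest unadjusted p in the fit as reported and in each alternative. All points lie left of 0, and Sstr4 ranges from -0.79 to -0.54.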

How the data were processed

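The deposited table holds, per the file headers, a whole-number count and an FPKM value (fragments scaled by the authors to transcript length and mapped fragments) for each gene and library. Build mm10 and the tools bcl2fastq 2.0, StringTie, HISAT2, limma and DESeq2 are named, with no role, per the submitters' processing notes. The counting method and its strand setting are not given in sources used here. Deposited counts of 4, 8 and 12 were over-represented (4 occurred 8061 times over genes and libraries, 3 and 5 only 2558 and 1570 times). One sequenced fragment may therefore be worth more than 1 count, and low counts are less precise than they look. There are 12 more columns of values whose names fit none of the labels, and these stayed out of every step. Of 218 member identifiers, all matched GENCODE mouse release M21, 182 with the same coordinates.

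The test covered the 13153 genes that averaged 1 FPKM or more. After TMM scaling, a model with a treatment term was fitted by edgeR 4.0.16 (glmQLFit, glmQLFTest) under R 4.3.3, with Benjamini-Hochberg adjustment over all genes and a threshold of 0.05. The procedure was tested on simulated counts. Standard errors are the log2 change divided by the root of the F statistic. Replicate numbers were shared between groups, but same-numbered libraries correlated in their deviations at 0.12, 0.08 and 0.01, so they were not treated as pairs. The alternatives used limma 3.58.1, DESeq2 1.42.0, other scalings and filters, a length correction, a replicate block and leaving out each library. Members and lists were chosen with earlier results of these data known. Genes were named by rule: up to 10 per direction with the smallest p among those whose groups do not overlap, the 12 with the highest FPKM, the highest of each role group, and 35 always named. Rows that overlap another gene carry its reads where strand was not used.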

Additional observations from a re-analysis of the deposited data

How the results depend on the processing

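Of 20 alternatives, 19 called 0 of the tested members, and DESeq2 called 1 (Sstr4, log2 change -0.66). Over all genes, DESeq2 called 218 and the replicate block 0, against 6 as reported, and leaving out 1 library gave 2 (without baicalin library 3) to 39 (without baicalin library 1), with 10 without saline library 2 and 14 without saline library 3. The median over members was -0.10 under TPM scaling, where the median of all genes was -0.07, and -0.06 to 0.003 without 1 library. With the replicate block 0 members were called and their median was -0.04; baicalin library 3 did not correlate best with its own number. Unadjusted, 1420 genes were lower and 408 higher under TPM scaling, against 718 and 834 as reported.

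Changes near 0 turned sign. Under TPM scaling Adora1 was at -0.057, Adrb1 -0.064, Chrnb2 -0.020, Glrb -0.061, Hrh3 -0.035, Mas1 -0.033, Oxtr -0.015 and P2rx7 -0.024. With the length trend removed Adcyap1r1 was at 0.023 and Adrb1 at -0.0073; Adrb1 was also at -0.0017 with library totals and -0.0005 with quantile scaling. Leaving out 1 library gave -0.13 to 0.046 for Adra2a, -0.77 to 0.038 for Chrna4, -0.22 to 0.065 for Crhr1, -0.011 to 0.11 for Hrh3, -0.058 to 0.036 for Npy2r, -0.06 to 0.15 for Oxtr, -0.11 to 0.18 for P2rx7, -0.042 to 0.049 for Adcyap1r1, -0.081 to 0.071 for Adrb1, -0.0058 to 0.046 for Glrb, -0.23 to 0.052 for Grp, -0.16 to 0.041 for Sstr3, -0.75 to 0.17 for Ednrb, -0.035 to 0.052 for Adora1 and -0.054 to 0.022 for Ntsr2. The cause was not tested.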
